A study of Mus musculus with 11 samples.

Results

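The genes described here are the subunits, activators, inhibitor and assembly chaperones of the proteasome, taken as the rows of the deposited expression table whose symbol starts with Psma to Psmg followed by a digit. Psmb8, Psmb9 and Psmb10, the inducible catalytic subunits, were left out by this rule and serve below as partners in ratios. The rule found 44 of 10992 genes, and all 44 passed the filter on low values. They comprise the 7 alpha ring and 7 beta ring genes of the 20S core, 17 genes of the 19S regulatory particle (6 base ATPases, 3 other base subunits and 8 lid subunits) and 13 genes of neither particle (5 activators, 1 inhibitor, 4 chaperones of the core and 3 chaperones of the base). Psma8 and Psmb11, which would match by name, were not analysed here.

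The proteasome is the protease that degrades proteins tagged with ubiquitin. Its 20S core is a barrel of 4 stacked rings, outer alpha rings that gate the entrance and inner beta rings that cut, and the 19S particle binds the ubiquitin chain, removes it and feeds the unfolded substrate into the barrel. In immune cells, interferon can replace the catalytic beta subunits by inducible ones and can add the PA28 activator, made of Psme1 and Psme2, which opens the gate without ubiquitin and is known for its part in producing peptides for MHC class I. SREBP2, the product of Srebf2, is known as the main activator of the genes that make cholesterol and take it up.

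The study sequenced bulk RNA of regulatory T cells (Tregs), which restrain immune responses. Cells were gated as live, CD3+, CD4+ and Foxp3+, and came from the spleen or from visceral adipose tissue (VAT) of male mice aged 25 weeks. Every mouse carried Foxp3-YFPcre, a Cre recombinase driven by the Foxp3 gene and thus active in Tregs. WT mice were Srebf2-WT/WT, and KO mice were Srebf2-flox/flox, so that Cre acts on the floxed Srebf2 alleles in Foxp3-expressing cells. From VAT, 3 WT and 3 KO libraries were analysed, and from spleen 2 of each genotype, both numbered 2 and 3. Whether a library held cells of 1 animal or of a pool is not given in the sources used here, so the p-values rest on a spread among samples that may be technical.

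Srebf2 was at 15.6 to 30.5 RPKM (reads normalised to transcript length and sequencing depth) in VAT WT, 0.263 to 1.23 in VAT KO, 10.5 and 23.2 in spleen WT and 1.59 and 2.59 in spleen KO, with no overlap of genotypes in either tissue. Two-sided exact permutation tests gave p = 0.1 in VAT and p = 0.333 in spleen, the smallest that 3 against 3 and 2 against 2 libraries allow. All 8 Treg markers were measured, with 13.3 to 16.4 RPKM of Foxp3 in VAT libraries and 6.97 to 8.87 RPKM in spleen libraries. The RPKM of a library summed to 185319 to 210779 over 9551 to 9774 genes at 1 RPKM or more. Read depth is unknown.

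Spleen WT replicate 2 stood apart in these genes. There, 33 of 44 members had their highest value of all 10 libraries, and 37 of 44 were higher than in spleen WT replicate 3, by a median of 0.50 on the log2 scale (1.42-fold) against -0.02 over all genes tested. The median SD of a member between libraries was accordingly 0.38 log2 units in spleen WT, against 0.14 in VAT WT, 0.11 in VAT KO and 0.10 in spleen KO. Over all genes tested it was 0.28 in spleen WT, 0.19 in VAT WT, 0.19 in VAT KO and 0.15 in spleen KO. Genes in general thus also spread more in spleen WT, but the excess over the other groups was larger in the members. Psme3, the gene of the nuclear activator PA28 gamma, went the other way, at 30.6 RPKM in replicate 2 and 57.3 in replicate 3. Values without this library are given beside several of the results.

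**Figure D1:**
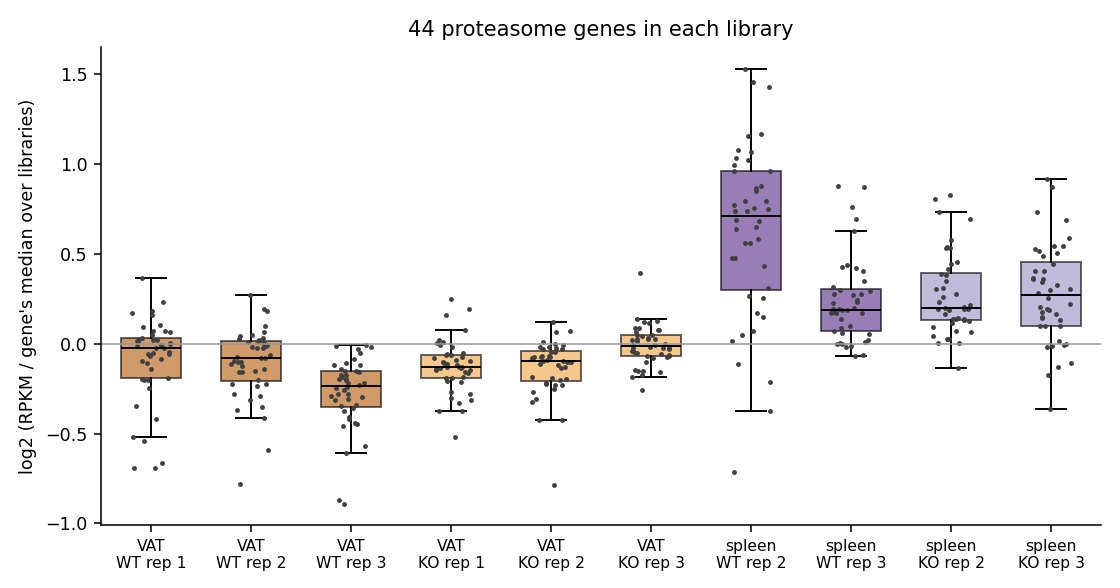
Level of the 44 proteasome genes in each of the 10 libraries, as the log2 ratio of a gene's RPKM to its own median over libraries. Points are genes, boxes span the quartiles with the median as a line, and whiskers reach 1.5 times the box. By its median, spleen WT replicate 2 lies above the other 9 libraries, and the 6 VAT libraries lie below the 4 spleen libraries.

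Proteasome genes were among the more abundant transcripts of these cells. The median member had a mean of 34.1 RPKM over the 10 libraries, at the 89.1 percentile of all genes in the table. Members spanned 4.93 RPKM for Psme4, an activator of the nuclear proteasome, to 92.3 RPKM for Psmb2, a non-catalytic beta ring subunit. Because RPKM is scaled by gene length, levels can be set side by side between genes.

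Levels differed between the roles. Alpha ring genes lay between 34.6 RPKM (Psma4) and 74.4 RPKM (Psma6), with a median of 55.0, and beta ring genes between 14.2 RPKM (Psmb7) and 92.3 RPKM (Psmb2), with a median of 53.7. The base ATPases, which unfold the substrate, ran from 18.02 RPKM (Psmc6) to 90.9 RPKM (Psmc5), with a median of 40.8. The other base subunits, which receive ubiquitin and its carriers, ran from 26.1 RPKM (Psmd1) to 47.3 RPKM (Psmd2), and the lid, which holds the deubiquitinase Psmd14, from 14.8 RPKM (Psmd11) to 61.3 RPKM (Psmd7). Activators ranged from Psme4 to 79.2 RPKM (Psme2). The genes that assemble or restrain the particle were lower: 13.9 RPKM (Psmg3) to 26.8 RPKM (Psmg4) for the core chaperones, 6.24 RPKM (Psmd9) to 26.6 RPKM (Psmd10) for the base chaperones and 6.68 RPKM for the inhibitor Psmf1. The order of the 44 levels was similar in all groups, with Spearman's rho of 0.985 between VAT WT and VAT KO and 0.909 between VAT WT and spleen WT. These are descriptions over genes that share the same libraries.

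The first comparison asked whether proteasome RNA differs between VAT and spleen Tregs, averaged over both genotypes. It was lower in VAT, with the largest differences in the PA28 activator genes Psme2, Psme1 and Psme2b, the core chaperones Psmg1 and Psmg3 and the alpha ring gene Psma5. Of 44 members, 42 had a value below 0 (VAT minus spleen), 26 fell and 0 rose at a limma adjusted p under 0.05, while 21.5% of all tested genes fell and 13.9% rose. The median member differed by -0.41 on the log2 scale, against -0.10 over all genes tested. In 20 of 44 members all 6 VAT libraries lay below all 4 spleen libraries, a pattern met in 15.4% of all genes, and in none did all VAT libraries lie above (10.4% of all genes). In bulk samples, fewer cells of a type and less RNA per cell cannot be told apart.

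The tissue difference covered both particles. In the 20S core, 14 of 14 genes were below 0 and 10 fell, with a median of -0.43. In the 19S particle, 17 of 17 were below 0 and 8 fell, with a median of -0.31. Among the 13 genes of neither particle 8 fell, with a median of -0.63. By role, 6 of 7 alpha ring genes, 4 of 7 beta ring genes, 4 of 6 base ATPases, 0 of 3 other base subunits, 4 of 8 lid genes, 3 of 5 activators, 3 of 4 core chaperones, 2 of 3 base chaperones and not the inhibitor passed the test. At an unadjusted p under 0.05, limma counted 32 members (45.1% of all genes).

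**Figure D2:**
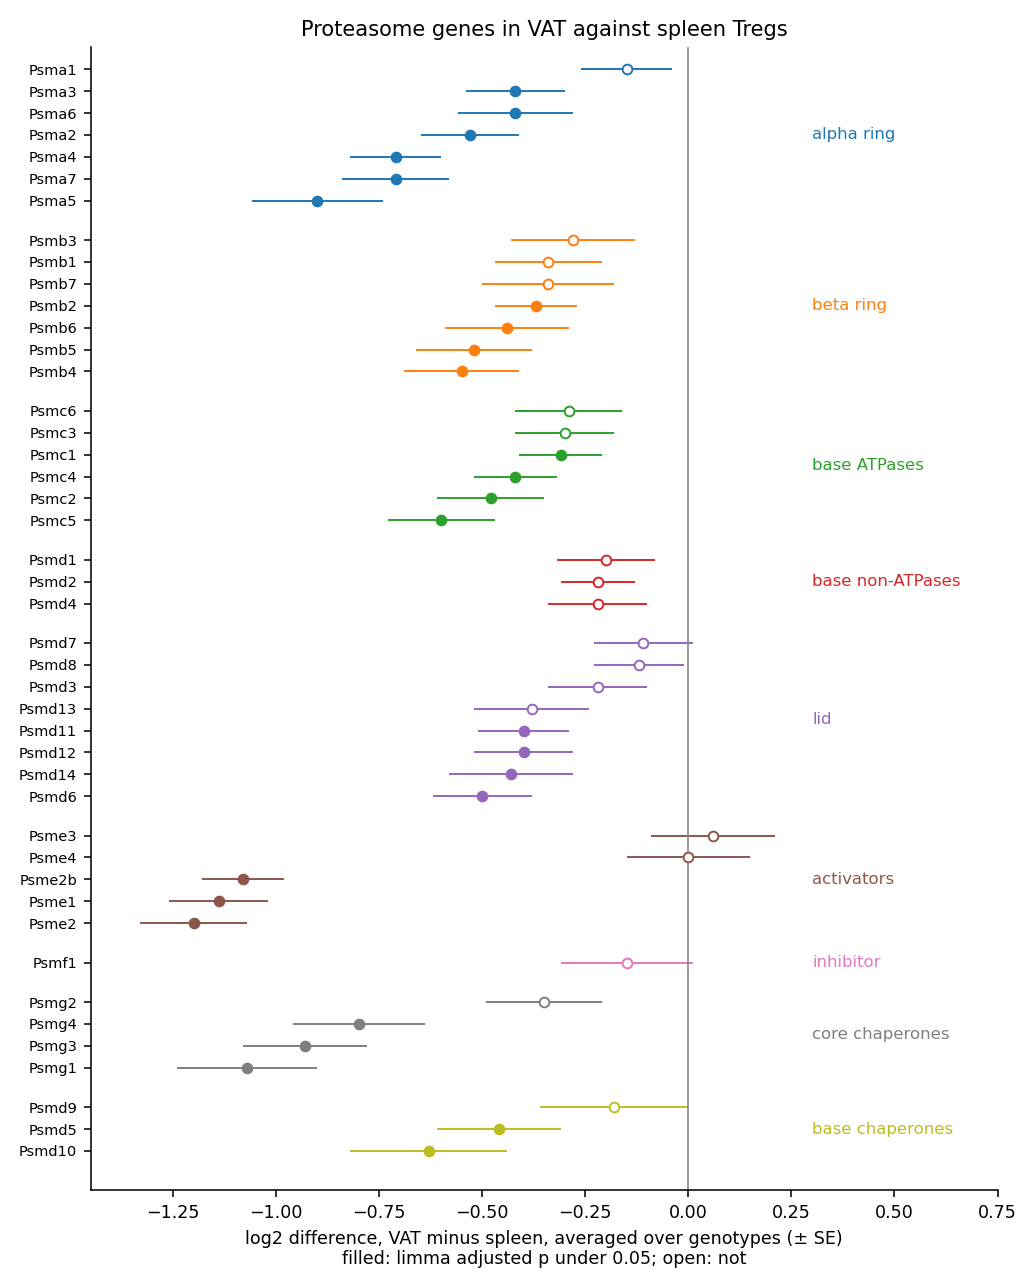
Difference between VAT and spleen Tregs, averaged over genotypes, for each of the 44 genes, in log2 units with its standard error, grouped by role. Filled points have a limma adjusted p under 0.05, and 42 of 44 points lie left of 0. Psme2, Psme1, Psme2b and Psmg1 lie furthest to the left, beyond -1.0.

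Other measures differed with tissue. Among the Treg markers, averaged over genotypes, Foxp3 (log2 0.84), Il2ra (0.85) and Ctla4 (1.68) were higher in VAT at a limma adjusted p under 0.05. Cd3e (-0.45), Cd3d (-0.85) and Cd3g (-0.48) were lower at the same threshold, and Ikzf2 (0.47) and Cd4 (0.00) did not pass. Of 12 myeloid markers 4 were measured, and their summed level was 12.3 to 15.2 RPKM in VAT WT, 20.2 to 45.6 in VAT KO, 179 and 240.5 in spleen WT and 183 and 186 in spleen KO, nearly all of it Ctss, the gene of cathepsin S, a lysosomal protease. Of 10 B cell markers 7 were measured, summing to 53.5 to 202 RPKM across VAT and 101 to 133 in spleen, which overlapped. Averaged over genotypes, Cd79b (log2 -0.84, limma adjusted p = 0.0237) and Cd22 (log2 -1.22, adjusted p = 0.0351) were lower in VAT. Cd74 was at -0.59 and did not pass (adjusted p = 0.11). Cd79a, Ms4a1, H2-Ab1 and H2-Aa were above 0 and did not pass either. Of 6 neutrophil markers only Mmp9 was measured, between 112 and 217 RPKM in VAT libraries and between 0.387 and 4.92 in those of spleen. Of 7 markers of stroma and endothelium only Pecam1 was measured. It was at 4.39 to 7.37 RPKM in VAT WT, 8.80 to 11.8 in VAT KO, 15.9 and 31.4 in spleen WT and 19.3 and 34.9 in spleen KO, lower in VAT without overlap (log2 -1.55 ± 0.22 SE, adjusted p = 0.000147). Of 7 markers of NK cells and of T cells other than CD4+ ones, only Cd8a and Cd8b1 were measured. Neither NK cells nor gamma-delta T cells thus had a measured marker. Cd8a, Cd8b1 and the adipocyte marker Lipe (1 of 6 measured) overlapped between the tissues, and no red cell marker was among the genes measured. No measured marker was at 0 in any library. The part of other cells in the tissue difference was not tested.

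The activators split by kind. Psme1, the PA28 alpha subunit, was at 27.6, 29.99 and 26.5 RPKM in VAT WT, 32.1, 35.3 and 34.8 in VAT KO, 94.2 and 64.2 in spleen WT and 56.7 and 66.2 in spleen KO. All VAT libraries lay below all spleen libraries, and Psme1 was 2.20-fold lower in VAT (log2 -1.14 ± 0.12 SE, adjusted p = 1.34e-05). Psme2, the PA28 beta subunit, was at 44.1, 51.1 and 43.4 RPKM in VAT WT, 51.7, 57.7 and 60.1 in VAT KO, 169.6 and 108.3 in spleen WT and 97.8 and 107.9 in spleen KO. It was 2.29-fold lower in VAT (log2 -1.20 ± 0.13 SE, adjusted p = 1.37e-05), again without overlap.

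Psme2b, a close copy of Psme2, was at 26.9, 28.3 and 28.8 RPKM in VAT WT, 39.7, 40.5 and 45.0 in VAT KO, 78.3 and 68.9 in spleen WT and 75.6 and 70.8 in spleen KO. It was 2.11-fold lower in VAT (log2 -1.08 ± 0.10 SE, adjusted p = 2.59e-06). Its value is uncertain in its source, because 541 of its 788 transcript words of 50 bases (68.7%) also occur in Psme2, and how reads that match both were counted is not given in the sources used here. Its span at chr11:48945345-48946410 (GRCm38.p6) also overlaps the measured gene 9930111J21Rik1, and the library kit does not mark strand. That neighbour was itself lower in VAT, by 0.88 on the log2 scale.

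The other activators showed no such difference. Psme3 was at 48.3 to 52.5 RPKM in VAT WT, 46.4 to 51.9 in VAT KO, 30.6 and 57.3 in spleen WT and 51.1 and 55.6 in spleen KO. Its tissue difference was 0.06 ± 0.15 SE (95% interval -0.26 to 0.38, adjusted p = 0.787), and it was -0.16 without spleen WT replicate 2 and 0.28 (adjusted p = 0.0244) without replicate 3. Psme4 lay between 4.28 and 5.61 RPKM in all 10 libraries, with a difference of 0.00 ± 0.15 SE (interval -0.31 to 0.32). Psme4 shares its locus with the measured gene Erlec1, as Psme1 does with Emc9.

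**Figure D3:**
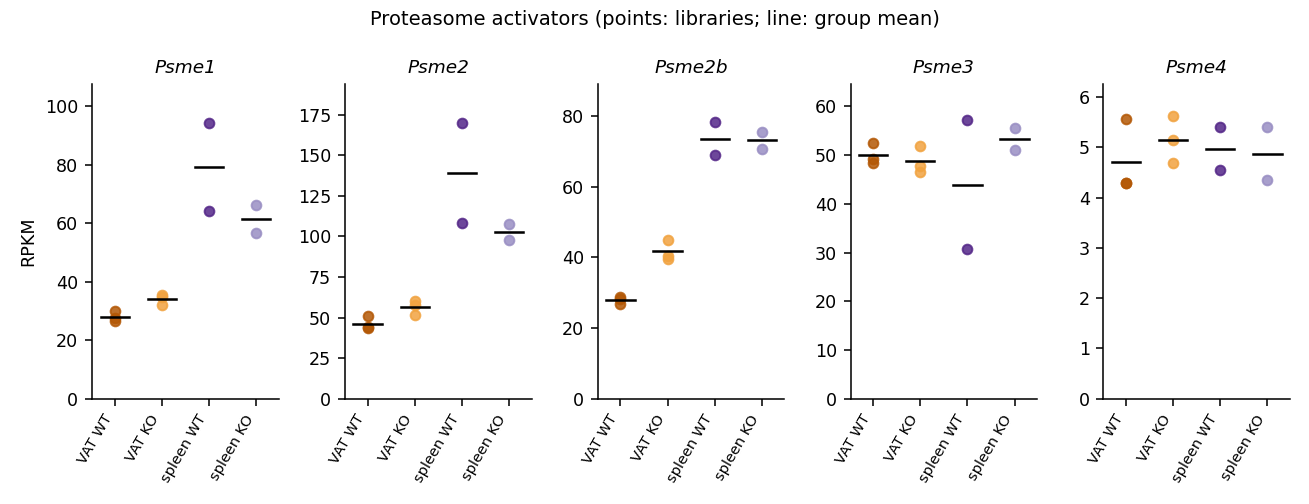
RPKM of the 5 proteasome activator genes in each library (points), with the group mean as a line and axes from 0. Psme1, Psme2 and Psme2b are lower in all 6 VAT libraries than in all 4 spleen libraries, and VAT KO lies above VAT WT for each, while Psme3 and Psme4 overlap between tissues.

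The core chaperones, which pair up to build the alpha ring, followed. Psmg1 was at 13.6, 12.3 and 8.65 RPKM in VAT WT, 10.6, 9.82 and 12.8 in VAT KO, 36.1 and 22.3 in spleen WT and 23.0 and 19.2 in spleen KO, a 2.09-fold lower level in VAT (log2 -1.07 ± 0.17 SE, adjusted p = 0.000348). Psmg3, at 7.11 to 8.04 RPKM in VAT WT, 11.3 to 13.2 in VAT KO, 27.1 and 15.7 in spleen WT and 17.8 and 18.9 in spleen KO, was 1.91-fold lower (log2 -0.93 ± 0.15 SE, adjusted p = 0.0004). Psmg4 fell by 0.80 on the log2 scale. The fourth of them, Psmg2, was at 15.1 to 25.2 RPKM across VAT and 20.2 to 27.7 in spleen and did not pass the test.

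In the alpha ring, the subunits with the smallest p were Psma4, Psma7 and Psma5. Psma4 was at 28.2, 27.5 and 24.0 RPKM in VAT WT, 26.6, 27.2 and 30.04 in VAT KO, 56.7 and 44.9 in spleen WT and 43.3 and 37.3 in spleen KO, 1.63-fold lower in VAT (log2 -0.71 ± 0.11 SE, adjusted p = 0.000354). Psma7, at 31.4 to 40.0 RPKM across VAT and 53.4 to 80.6 in spleen, also differed by -0.71 ± 0.13 SE (adjusted p = 0.00088). Psma5, at 33.2 to 53.0 RPKM across VAT and 62.9 to 108 in spleen, differed by -0.90 ± 0.16 SE (adjusted p = 0.000921). In these 3 genes the libraries of the tissues did not overlap.

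The catalytic subunits of the beta ring showed smaller differences. Psmb5, the chymotrypsin-like subunit, was at 70.1, 62.5 and 61.5 RPKM in VAT WT, 60.4, 63.6 and 63.2 in VAT KO, 133 and 76.1 in spleen WT and 76.3 and 90.9 in spleen KO, and fell by 0.52 ± 0.14 SE on the log2 scale in VAT (adjusted p = 0.0114). Psmb6, the caspase-like subunit, was at 44.1, 50.8 and 37.2 RPKM in VAT WT, 41.3, 46.5 and 55.0 in VAT KO, 85.5 and 50.9 in spleen WT and 58.1 in both spleen KO libraries, a difference of -0.44 ± 0.15 SE (adjusted p = 0.0378). Psmb7, the trypsin-like subunit, was at 10.9 to 15.6 RPKM across VAT and 13.3 to 24.0 in spleen, a difference of -0.34 ± 0.16 SE that did not pass (adjusted p = 0.129). The tissues overlapped for Psmb6 and Psmb7 but not for Psmb5. Psmb6 lost its call without spleen WT replicate 2 (adjusted p = 0.131), without either spleen KO library, without VAT WT replicate 1 or 3 and without VAT KO replicate 1 or 2, and Psmb5 lost its call without spleen KO replicate 3 (adjusted p = 0.0573). Psmb7 passed without spleen WT replicate 3 (adjusted p = 0.00715). The differences were smaller without spleen WT replicate 2, at -0.32 for Psmb5 (adjusted p = 0.0177), -0.25 for Psmb6 and -0.14 for Psmb7.

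In the regulatory particle the 8 genes that fell did so by 0.31 to 0.60 on the log2 scale. They were the ATPases Psmc1, Psmc2, Psmc4 and Psmc5 and the lid subunits Psmd6, Psmd11, Psmd12 and Psmd14. Psmd14 was at -0.43 with all libraries and at -0.21 (adjusted p = 0.133) without spleen WT replicate 2. Psmc5 had the largest difference, at 64.2 to 83.7 RPKM across VAT and 96.4 to 150.0 in spleen (log2 -0.60 ± 0.13 SE, adjusted p = 0.00404). Among the base chaperones, which guide the ATPase ring together, Psmd5 and Psmd10 fell by 0.46 and 0.63. Psmd10 overlaps the measured gene Atg4a, and Psma3, which fell by 0.42 in the alpha ring, overlaps 3110056K07Rik.

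The count depended on libraries and scaling. Without spleen WT replicate 2, 44 of 44 members were below 0, the median was -0.29 and 21 of the 26 were still called, among them Psme1 (-1.0), Psme2 (-1.03) and Psme2b (-1.03). Without spleen KO replicate 3, 16 members were called. Scaling by median ratios moved the median of all genes from -0.10 to 0.00 and the split of all called genes from 1445 higher and 2240 lower to 1792 and 1525. Under it 40 of 44 members remained below 0, with a median of -0.29, and 14 were called, while Psmd7, Psmd8, Psme3 and Psme4 were above 0.

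Promoters are shown for members chosen by their tissue difference or by a motif they hold. The RefSeq table (GRCm38.p6) matched 37 of 44 members, with a window from 250 bases before to 50 bases from the start site. Psme1 and Psme2 are given as the PA28 pair with the largest tissue difference, and Psmb5 and Psmb6 as catalytic subunits that hold the core of the antioxidant response element, TGACNNNGC, the kind of element through which NRF1 and NRF2 are known to induce proteasome genes. The stretches run from 100 bases before the start to 20 bases from it, on the gene's strand, at chr14:55578394-55578513 (plus) for Psme1, chr14:55591082-55591201 (minus) for Psme2, chr14:54617976-54618095 (minus) for Psmb5 and chr11:70525257-70525376 (plus) for Psmb6. Capitals mark a match of a searched motif.
Psme1: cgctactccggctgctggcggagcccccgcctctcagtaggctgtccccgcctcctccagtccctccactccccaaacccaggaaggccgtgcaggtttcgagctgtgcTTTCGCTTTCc
Psme2: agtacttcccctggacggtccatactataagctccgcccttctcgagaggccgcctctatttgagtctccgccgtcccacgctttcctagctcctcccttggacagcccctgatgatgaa
Psmb5: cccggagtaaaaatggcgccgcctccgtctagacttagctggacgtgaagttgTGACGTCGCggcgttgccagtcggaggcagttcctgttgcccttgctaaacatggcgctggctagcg
Psmb6: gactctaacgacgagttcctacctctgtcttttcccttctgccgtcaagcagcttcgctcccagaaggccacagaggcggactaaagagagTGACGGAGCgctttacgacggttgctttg

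The match in Psme1 is to the core of the interferon-stimulated response element, GAAA, 2 unspecified bases and GAAA, read on the opposite strand. Searched on both strands, the antioxidant core occurred in 6 of 37 members' windows (16.2%: Psmb5, Psmb6, Psmc6, Psmd9, Psmd12 and Psme4), against 12.5% of 27025 promoters of the same length. The CCAAT box, CCAAT, occurred in 12 of 37 (32.4%), against 37.9%. The interferon core, added after the values were seen, occurred in 5 of 37 (13.5%: Psmb3, Psmd4, Psmd9, Psme1 and Psmg4), against 3.49%. Among 8440 promoters of tested genes, the antioxidant core occurred in 14.7%, the CCAAT box in 39.5% and the interferon core in 3.18%. No matches of different motifs overlapped in these windows. Of the 5 holders of the interferon core, Psme1 and Psmg4 fell in VAT and Psmb3, Psmd4 and Psmd9 did not pass the test. Of the 6 holders of the antioxidant core, Psmb5, Psmb6 and Psmd12 fell in VAT and Psmc6, Psmd9 and Psme4 did not pass. A match is a run of letters and not a binding site.

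With the genotypes taken apart, the tissue difference was called for 23 members in WT and 6 in KO, where 15.4% and 6.94% of all tested genes fell. No member rose, where 10.7% of tested genes rose in WT and 7.65% in KO. In WT, 43 of 44 members were below 0 with a median of -0.52 (all genes -0.12), and in 30 all VAT WT libraries lay below both spleen WT libraries (31% of all genes). In KO, 43 of 44 were below 0 with a median of -0.30 (all genes -0.09), and in 33 the groups did not overlap (30.4% of all genes), 14 of 14 core genes among them. The genes called in KO were Psma4, Psma7, Psme1, Psme2, Psme2b and Psmg1. The difference was -1.44 in WT and -0.83 in KO for Psme1, -1.54 and -0.85 for Psme2, -1.36 and -0.80 for Psme2b, and -1.25 and -0.88 for Psmg1. The test of the difference between genotypes, the interaction, passed for no member (smallest adjusted p = 0.632). Among the catalytic subunits Psmb5 was at -0.63 ± 0.20 SE in WT (adjusted p = 0.0333) and -0.41 ± 0.20 in KO (adjusted p = 0.194), and Psmb6 and Psmb7 passed in neither. Without spleen WT replicate 2 the WT differences were -1.17 for Psme1, -1.21 for Psme2, -1.27 for Psme2b and -0.92 for Psmg1, and they were -0.23 for Psmb5 (adjusted p = 0.297), -0.22 for Psmb6 and -0.08 for Psmb7.

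These counts rested on single libraries. In WT, the median without spleen WT replicate 2 was -0.30 (all genes -0.14). There, 15, 15 and 12 members were called without VAT WT replicates 1, 2 and 3. In KO, the spleen WT libraries enter only through the shared spread. Without the one or the other the KO median stayed at -0.30 (all genes -0.09). The medians in WT and KO were thus alike when spleen WT replicate 2 was left out. The larger count in WT with all libraries therefore does not show a weaker tissue difference in KO. In KO, 3 members were called without VAT KO replicate 1. The number of all genes called moved between such fits as well, so these counts do not stand for the members alone. Psme2b kept its call in KO whichever library was left out, and Psme1 and Psme2 lost theirs only without spleen KO replicate 3 (adjusted p = 0.0819 and 0.0776). Psmg1, Psma7 and Psma4 lost theirs without either spleen KO library and without VAT KO replicate 1, with Psmg1 and Psma4 also lost without VAT KO replicate 2, Psma7 and Psma4 without replicate 3, and Psma4 without each VAT WT library. In WT, Psma7 was at -0.49 in place of -0.78 and was lost without spleen WT replicate 2 (adjusted p = 0.0538), and Psmb5 without that library, each VAT WT library in turn or VAT KO replicate 2. Median-ratio scaling left 12 calls in WT and 4 in KO, with medians of -0.38 and -0.20, and moved the split of all called genes from 1116 higher and 1607 lower to 1380 and 1062 in WT, and from 798 and 724 to 935 and 523 in KO.

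Ratios within a library do not depend on its scaling. The level of the median 19S gene over that of the median 20S gene was 0.609 to 0.684 in VAT WT, 0.579 to 0.639 in VAT KO, 0.487 and 0.512 in spleen WT and 0.533 and 0.540 in spleen KO. It was higher in all VAT libraries than in all spleen libraries. This separation belongs to the medians, and the summed RPKM of the particles did not show it. The 19S sum was 525 beside a 20S sum of 671 in VAT KO replicate 2, and 669 beside 816 in spleen WT replicate 3. Psme1 over the median 20S gene was 0.620 to 0.644 in VAT WT and 0.663 to 0.776 in VAT KO, against 1.03 and 1.06 in spleen WT and 0.938 and 1.05 in spleen KO. For Psme2 the same ratio was 0.990 to 1.09, 1.14 to 1.27, 1.79 and 1.86, and 1.62 and 1.72. PA28 RNA was thus lower in VAT also relative to the core, with no overlap of tissues, and spleen WT replicate 2 was 1 of the 4 spleen libraries that lay above all 6 VAT libraries.

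The inducible catalytic subunits were set against the constitutive ones they replace. Psmb8 over Psmb5 was 1.29 to 1.51 over all 10 libraries, with all groups overlapping. Psmb9 over Psmb6 was 0.512 to 0.669 in VAT and 0.783 to 1.03 in spleen. Psmb10 over Psmb7 was 1.07 to 1.79 in VAT and 3.17 to 4.33 in spleen. The latter ratios did not overlap between tissues. The genes themselves fell in VAT by 0.54 (Psmb8, adjusted p = 0.00389), 1.06 (Psmb9, adjusted p = 1.21e-05) and 1.65 (Psmb10, adjusted p = 2.54e-07) on the log2 scale.

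**Figure D4:**
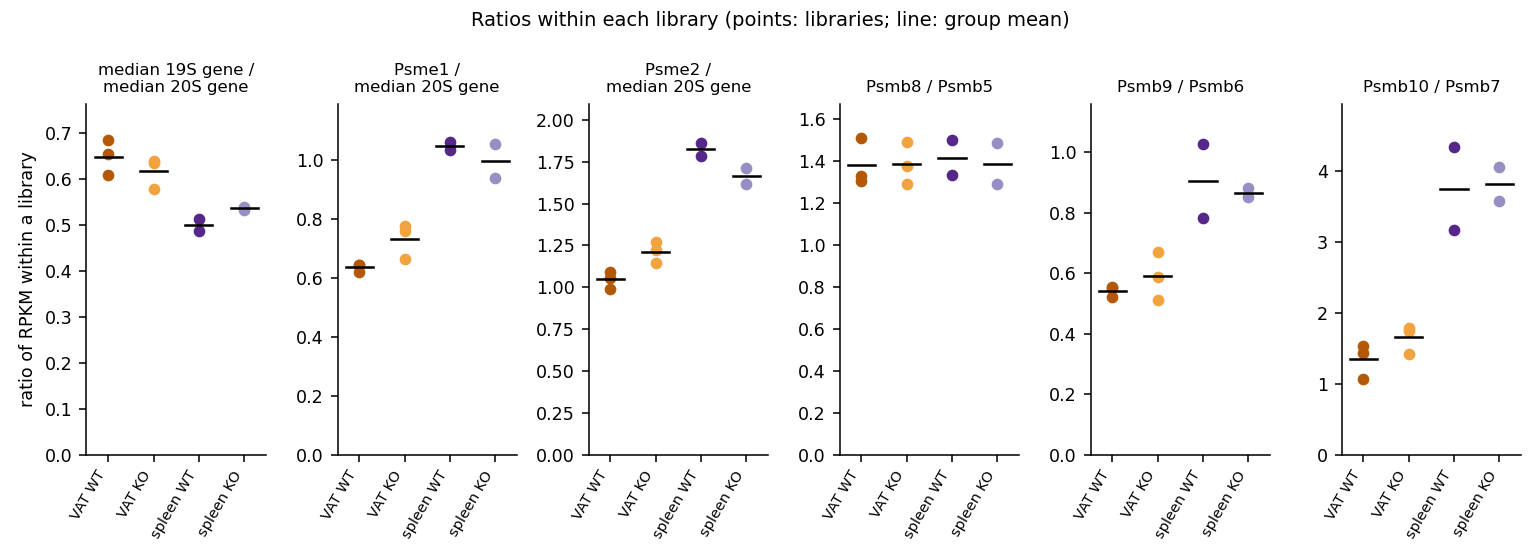
Ratios of RPKM within each library (points), with the group mean as a line and axes from 0. VAT libraries are higher than spleen libraries for the median 19S over the median 20S gene. They are lower for Psme1 and Psme2 over the median 20S gene, for Psmb9 over Psmb6 and for Psmb10 over Psmb7. The tissues overlap for Psmb8 over Psmb5 (1.29 to 1.51).

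The second comparison asked whether deletion of Srebf2 changes proteasome RNA in VAT Tregs. No member was called by limma at an adjusted p under 0.05, where 0.422% of all tested genes were, and 3 members had an unadjusted p under 0.05, where 7.35% of genes did. The median member differed by 0.03 (KO minus WT), against 0.02 over all genes. The 20S core had a median of 0.01, the 19S particle -0.01 and the 13 genes of neither particle 0.21. The difference was -0.05 for Psmb5 (95% interval -0.43 to 0.33), 0.11 for Psmb6 (-0.30 to 0.52) and 0.01 for Psmb7 (-0.44 to 0.46).

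All 3 KO libraries lay above all 3 WT libraries in 5 of 44 members, a count near the share of all genes with this pattern (8.97%). They were Psme1, Psme2, Psme2b, Psmg3 and Psmd5, which belong to neither particle. Psme2 and Psme2b share transcript words, as given above, and are not independent. All KO libraries lay below all WT libraries for Psmc1 (6.16% of all genes). Psme2b had 28.0 ± 0.949 RPKM (SD, n = 3) in WT and 41.7 ± 2.86 (SD, n = 3) in KO, a log2 difference of 0.56 ± 0.12 SE (95% interval 0.30 to 0.82) with a limma adjusted p = 0.0902. Leaving out spleen WT replicate 2 or 3 brought it past the threshold (adjusted p = 0.0288 and 0.0284), though these libraries enter this comparison only through the shared spread, and so did sample weights (adjusted p = 0.0228). The overlapping gene 9930111J21Rik1 was at 12.2, 15.3 and 20.2 RPKM in WT and 25.6, 25.4 and 27.8 in KO. Pecam1 and the summed myeloid markers, given above, were also higher in every VAT KO than in every VAT WT library. Nearly all of that sum was Ctss, which was called (log2 1.31, limma adjusted p = 0.0449). Adgre1 and Fcer1g overlapped between the genotypes, and Csf1r was higher in KO but at most 0.144 RPKM in VAT. The part of Pecam1 and of the myeloid markers in these values was not tested.

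Psmg3 was at 8.04, 7.56 and 7.11 RPKM in WT and 11.3, 12.7 and 13.2 in KO (log2 0.65 ± 0.19 SE, interval 0.24 to 1.05, adjusted p = 0.295). Psmd5 was at 7.08, 8.56 and 8.79 RPKM in WT and 12.7, 10.5 and 12.4 in KO (log2 0.50 ± 0.19 SE, interval 0.07 to 0.92, adjusted p = 0.542). For Psme1 and Psme2, whose libraries are given above, the differences were 0.27 (interval -0.06 to 0.60) and 0.29 (interval -0.06 to 0.63), with adjusted p = 0.837 and 0.844.

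In spleen Tregs no member was called either, as no gene of the table was (0% of tested genes). At an unadjusted p under 0.05 limma counted 1 member and 8.37% of all genes. Members were lower in KO by a median of -0.18 (all genes -0.03), with 36 of 44 and 14 of 14 core genes below 0. That direction rested on 1 library. Without spleen WT replicate 2 the median was 0.05 with 26 members above 0 and 18 below, and without replicate 3 it was -0.47 with 12 members called, Psmc1 and Psmd14 among them, in a fit that called 1395 of 10399 genes. The smallest p belonged to Psmc1 (88.1 and 69.3 RPKM in WT, 56.8 and 66.0 in KO, log2 -0.35 ± 0.16 SE, adjusted p = 0.594), Psmd14 (63.4 and 34.1 RPKM in WT, 30.1 and 35.8 in KO, log2 -0.49 ± 0.23 SE, adjusted p = 0.596) and Psmd12 (45.7 and 40.4 RPKM in WT, 37.7 and 27.9 in KO, log2 -0.39 ± 0.19 SE, adjusted p = 0.596). These differences without spleen WT replicate 2 were -0.18 for Psmc1, -0.05 for Psmd14 and -0.31 for Psmd12. In 7 members both KO libraries lay below both WT libraries (17.5% of all genes), and in 3 above (15% of all genes), Psmd11, Psmg2 and Psmd5. The catalytic subunits differed by -0.27 (Psmb5, interval -0.74 to 0.20), -0.18 (Psmb6, interval -0.69 to 0.32) and -0.29 (Psmb7, interval -0.84 to 0.26). All 3 turned sign without spleen WT replicate 2, to 0.13, 0.19 and 0.11.

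**Figure D5:**
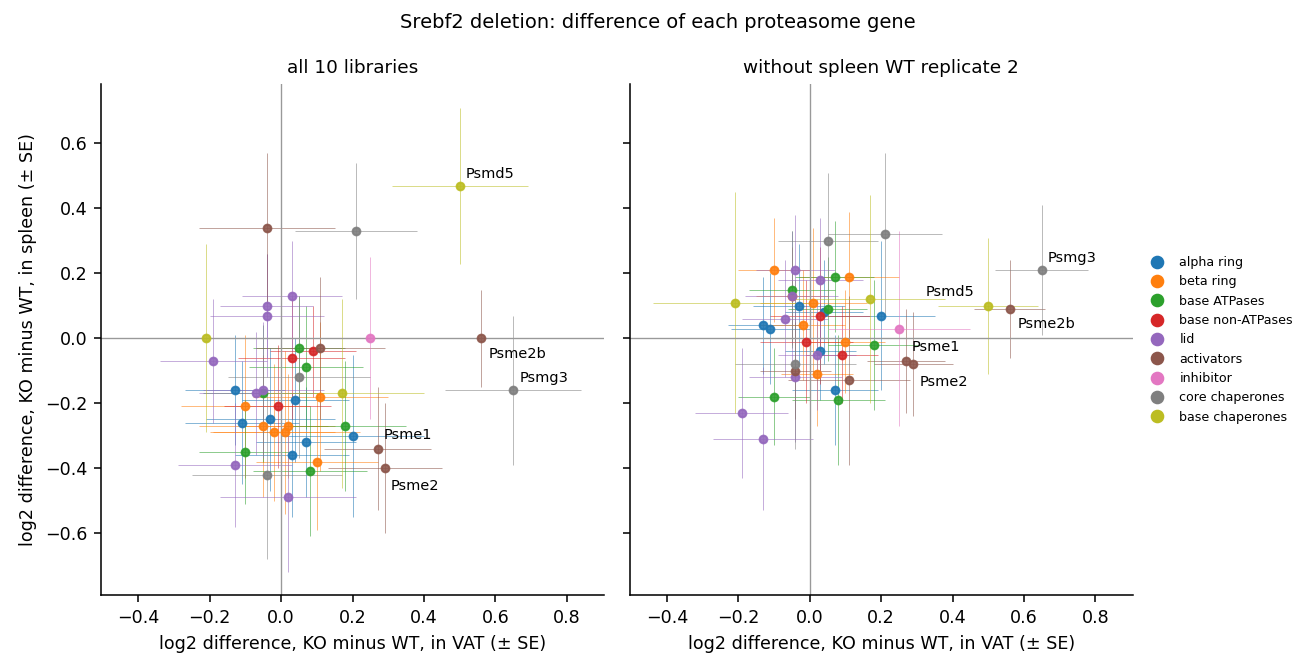
Difference between KO and WT for each of the 44 genes in VAT (horizontal axis) and spleen (vertical axis), in log2 units with standard errors, colored by role, with all 10 libraries (left) and without spleen WT replicate 2 (right). Most points lie below 0 on the vertical axis at left and around 0 at right, where the median is 0.05.

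No member's deletion effect differed between the tissues at an adjusted p under 0.05 for the interaction in limma, as for 0% of all tested genes, and 4 members had an unadjusted p under 0.05 (7.08% of genes). The smallest p belonged to Psme2b (0.56 ± 0.19 SE, adjusted p = 0.632), Psmg3 (0.81 ± 0.30 SE, adjusted p = 0.635) and Psme2 (0.68 ± 0.25 SE, adjusted p = 0.65). The median interaction of the members was 0.22 (all genes 0.05), 0.04 without spleen WT replicate 2 and 0.44 without replicate 3, when 7 members and 514 of 10399 genes were called. The interaction without spleen WT replicate 2 was 0.47 for Psme2b, 0.43 for Psmg3 and 0.36 for Psme2. With the deletion averaged over both tissues, 0 members were called (0.0767% of all genes) and 3 had an unadjusted p under 0.05 (8.64% of all genes), with a median of -0.09. Psmd5, the base chaperone, had the smallest p (0.48 ± 0.15 SE, adjusted p = 0.454), followed by Psme2b (0.28 ± 0.10 SE, adjusted p = 0.458) and Psmc1 (-0.22 ± 0.10 SE, adjusted p = 0.571). Without spleen WT replicate 3, 5 members and 769 of 10399 genes were called in this average, Psmd5 among them (adjusted p = 0.0152). Without replicate 2 its median was 0.04, with Psmd5 at 0.30 and Psmc1 at -0.14.

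Of 40 listed partners of the proteasome outside the name rule, 39 were measured. Between the tissues, averaged over genotypes, 10 of 39 fell in VAT and 4 rose, with a median of -0.07, while 21.5% of all tested genes fell and 13.9% rose, with a median of -0.10. The smallest p belonged to Psmb10 and to Maff, a small MAF protein that pairs with NRF1, which was at 2.26 to 4.53 RPKM across VAT and 0.126 to 0.548 in spleen (log2 1.58 ± 0.16 SE, adjusted p = 9.12e-06). Of the 3 subunits and chaperones outside the name pattern, Pomp, which matures the core, and Adrm1, a ubiquitin receptor of the base, fell by 0.54 and 0.37, and Sem1 differed by -0.34 (adjusted p = 0.132). NRF1 itself (Nfe2l1), named for its role and outside the rule for named genes, differed by 0.32 (adjusted p = 0.171). In WT 7 fell and 3 rose, where 15.4% and 10.7% of all genes did, and in KO 4 fell and 2 rose, where 6.94% and 7.65% did, with Psmb10 and Psmb9 of smallest p in WT and Maff and Psmb10 in KO. Deletion of Srebf2 gave 0 called partners by limma in either tissue, with 2 at an unadjusted p under 0.05 in VAT, where 7.35% of all genes were (Maff 0.50, adjusted p = 0.568, and Nfe2l2 0.37, adjusted p = 0.643) and 2 in spleen, where 8.37% were (Ubqln1 0.49 and Ngly1 -0.49, both adjusted p = 0.594). The interaction gave 0 called and 3 at an unadjusted p under 0.05 (7.08% of all genes), with Psmb10 (0.56) and Nploc4 (-1.09) of smallest p.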

How the data were processed

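RNA was amplified with SMART-seq v4 and made into Nextera XT libraries, per the labels' protocols. STAR and mm10 are named in the submitters' processing notes, while the counter and gene models are not stated there. Per the file headers, the RPKM values (reads normalised to transcript length and sequencing depth) come from a single table that the authors deposited. The labels name 11 samples, of which 10 have a matching column. Spleen KO replicate 1 was not analysed here, and 1 column of values was not used. That column is named as a spleen WT library numbered 1, which the labels do not list, and whether one of these names is in error is not known. The design had assumed all samples. The worth of a single read could not be read from low values, so depths and counting errors are unknown.

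Values were analysed as log2(RPKM + 1) over the 10429 genes with at least 1 RPKM in at least 2 samples, in 1 limma fit (limma 3.58.1, R 4.3.3) of 4 group means with trend and no covariate, with 6 residual and 6.44 prior degrees of freedom. Fold changes are on this scale and understate those of low genes. P-values were two-sided and adjusted by Benjamini-Hochberg over all genes within each of 7 comparisons, and calls were made under 0.05. Intervals are 95% intervals from limma's moderated error. Identifiers of all 44 members were found in a table of GRCm38.p6, which is mm10. Members and lists were chosen with earlier results of these data known. Named are the catalytic subunits, the 8 called members of smallest p in a comparison (or the 3 of smallest p where none was called), and the highest and lowest member of each role. Other names are given because their groups did not overlap, to make up a role or a count, or for their role, and were chosen after their values were seen. Partners outside the name rule were named as the 2 of smallest p per comparison. As alternatives, the pseudocount was set to 0.1 or 5, the filter was dropped or set to a mean of 5 RPKM, and the fit was repeated with median-ratio scaling, quantile normalization, sample weights, replicate numbers as a block, the compared groups alone and each library left out. The fit was tested on simulated data.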

Additional observations from a re-analysis of the deposited data

Results flagged for a closer look

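For Psme2, the PA28 beta subunit, KO and WT libraries did not overlap in either tissue, with opposite order: all 3 VAT KO libraries (51.7 to 60.1 RPKM) lay above all 3 VAT WT libraries (43.4 to 51.1 RPKM), and both spleen KO libraries (97.8 and 107.9 RPKM) lay below both spleen WT libraries (108.3 and 169.6 RPKM). Taken alone, the VAT order was met in 8.97% of all genes and the spleen order in 17.5%. The share of genes with both was not counted. Neither difference passed the test (log2 0.29, adjusted p = 0.844 in VAT and -0.40, adjusted p = 0.604 in spleen), and without spleen WT replicate 2 the spleen difference was -0.08. The test of the difference itself, the interaction in limma, gave 0.68 ± 0.25 SE with an adjusted p = 0.65 and did not pass. The interaction ran from 0.36 to 1.00 with each library left out.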

How the results depend on the processing

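Beside the settings that leave out a library, results were recomputed under 9 alternatives, of which the compared groups alone apply to single contrasts of 2 groups. With a library left out, the number of members called ran from 0 to 1 for KO against WT in VAT, 0 to 12 in spleen, 8 to 32 for VAT against spleen in WT, 1 to 14 in KO, 16 to 33 averaged, 0 to 7 for the interaction and 0 to 5 for the averaged deletion. The median of the members ran from -0.47 to 0.05 for the deletion in spleen, -0.78 to -0.30 for the tissues in WT, 0.04 to 0.44 for the interaction and -0.21 to 0.04 for the averaged deletion. Where a group kept 1 library, it was assumed to vary like the other groups. The number of all genes called moved between these fits as well, so the ranges of member counts do not stand for these genes alone. Psme3 turned negative without spleen WT replicate 2, with -0.19 to 0.69 over the left-out libraries in WT and -0.16 to 0.28 averaged. Median-ratio scaling gave 12 calls and a median of -0.38 in WT, and 14 and -0.29 averaged. Quantile normalization gave 15 calls and a median of -0.40 in WT. Sample weights gave 11 calls in WT, 14 in KO and 1 for the deletion in VAT (Psme2b), and the compared groups alone gave 10 in WT and 12 in KO. Whether equal replicate numbers mark the same animal is not known, and so few libraries cannot settle it. Deviations of same-numbered VAT and spleen libraries from their group means correlated at 0.0919 and 0.184 in WT and at 0.0031 and 0.0463 in KO. With 2 spleen libraries per genotype, their deviations mirror each other, so the correlations within a genotype are not independent. Deviations of same-numbered VAT WT and KO libraries, which come from different mice, correlated at -0.0917, 0.049 and -0.147. Not every library correlated best with its own number. The replicate block gave 14 calls for the tissues in WT, 4 in KO and 20 averaged. The causes were not tested. Among single genes, 830 recomputed values kept their call and direction, 45 lost a call, 17 gained one and 2 reversed. With depth unknown, no counting error can be given for the lowest members, Psme4, Psmd9 and Psmf1.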
